A study of Mus musculus with 4 samples.

Results

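Nuclei of the mouse hypothalamus that carried transcripts of both Agrp and Npy were examined. A nucleus was counted as a member when it had at least 500 genes, at most 5% of its unique molecular identifiers (UMIs) from mitochondrially encoded genes, at least 3 Agrp UMIs, at least 2 Npy UMIs and at least 3 UMIs of Snhg11, a non-coding RNA that neurons carry at high level. Of 54422 nuclei past the gene and mitochondrial filters, 70 were members. The gate's own readings of Agrp, Npy and Snhg11 chose the members, so their values are given as a description and were not tested.

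Neurons that make agouti-related peptide (Agrp) and neuropeptide Y (Npy) sit in the arcuate nucleus at the base of the hypothalamus and drive feeding when energy is short. Agouti-related peptide blocks the melanocortin receptors on which the products of neighbouring Pomc neurons act, neuropeptide Y acts through its own receptors, and most of these cells also release GABA. The stomach hormone ghrelin excites them through its receptor Ghsr, while leptin from fat acts on them through the leptin receptor Lepr and the transcription factor Stat3. Insulin and glucocorticoids also act on these cells.

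Imidazole propionate (ImP) is made from histidine by bacteria of the gut, and the study asked how it alters the hypothalamus. All 4 libraries came from wild-type C57BL/6J mice kept with a conventional, specific-pathogen-free flora, with an osmotic pump in the peritoneal cavity for 2 weeks. The 2 ImP libraries (ImP 3 and ImP 4) came from mice whose pump gave 350 µg of ImP per day, dissolved in water with 1% DMSO, and the 2 vehicle libraries (vehicle 1 and vehicle 2) from mice on the vehicle alone. Nuclei of the frozen hypothalamus were counted with 10x Genomics 3′ chemistry. Whether the libraries stand for separate animals is not stated. P-values between ImP and vehicle within the members measure the spread between libraries, which may be technical. Where members and other nuclei are compared, the library is a block. There p-values measure how the difference of the 2 classes varies across libraries, which may be technical too.

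After filtering, the libraries held 10917 to 15725 nuclei with median depths of 2820 to 3757 UMIs, lower in both ImP libraries. The pituitary hormone transcript Gh had a UMI in 97.1% of other nuclei past the Snhg11 threshold in ImP 4, against 1.20% to 6.95% in the other 3 libraries. In the members, a list of 9 pituitary markers summed to 0 UMIs in ImP 3 and 240 in ImP 4, against 0 in vehicle 1 and 4 in vehicle 2. Pairs of libraries shared 35 to 67 barcodes, at most 0.513% of a library.

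The gate found 7 members in ImP 3 and 29 in ImP 4, against 13 in vehicle 1 and 21 in vehicle 2. ImP 3 was lowest and ImP 4 highest, so the vehicle libraries lay between the ImP libraries. As a share of all nuclei with at least 3 Snhg11 UMIs, members made up 0.0607% in ImP 3 (95% exact binomial interval 0.0244 to 0.125) and 0.233% in ImP 4 (0.156 to 0.334), against 0.152% in vehicle 1 (0.0811 to 0.260) and 0.202% in vehicle 2 (0.125 to 0.308). The mean share was 0.147 ± 0.122% with ImP and 0.177 ± 0.0351% with vehicle (SD, n = 2 each), and an exact two-sided permutation test over libraries gave p = 1, where 2 libraries against 2 cannot go below 0.333. The intervals cover counting error only. In another setting, nuclei past the Snhg11 threshold were thinned to 3000 UMIs before gating, and those with fewer UMIs were left out. This left out 4640 nuclei in ImP 3 and 5309 in ImP 4, against 2015 in vehicle 1 and 3582 in vehicle 2. The difference then changed sign, with means of 0.106% with ImP and 0.0815% with vehicle (exact permutation p = 0.667). The part of the nuclei left out in this was not tested. At full depth and without ImP 3, the difference of 0.0304 percentage points below vehicle became 0.0556 points above it. With 2 libraries against 2 this test could not call a change of any size, so no conclusion on the share is drawn.

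The members were thin in gate transcripts. Across all 70, Agrp ranged over 3 to 12 UMIs with a median of 4, Npy over 2 to 9 with a median of 3, and Snhg11 over 3 to 161 with a median of 36. Agrp stood exactly at its threshold in 3 of 7 members of ImP 3 and 13 of 29 of ImP 4, against 7 of 13 in vehicle 1 and 11 of 21 in vehicle 2. Removing the Snhg11 condition changed no library's member count.

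**Figure D1:**
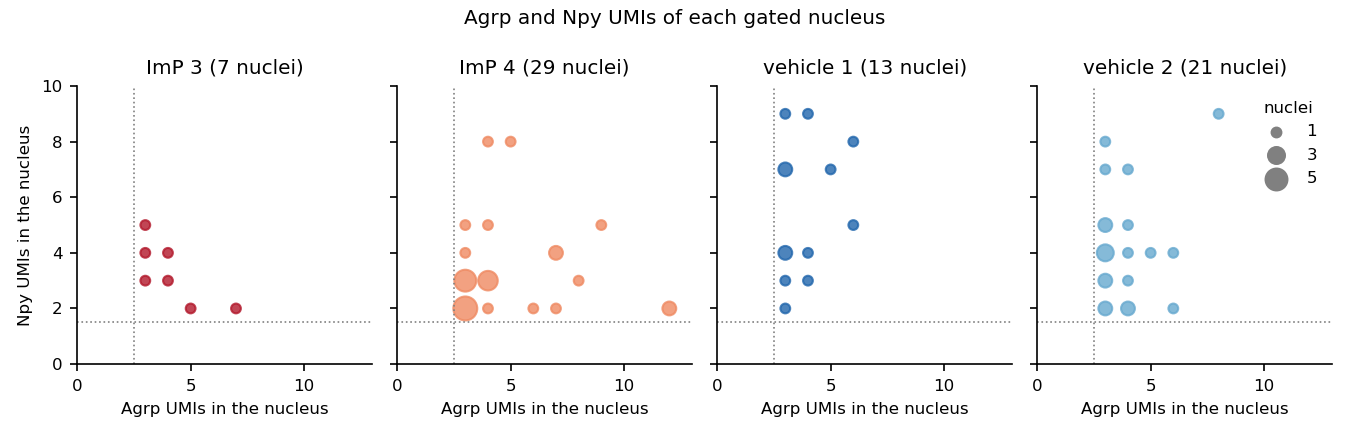
UMIs of Agrp (horizontal) and Npy (vertical) in each member nucleus, 1 panel per library, with circle area for the number of nuclei and dotted lines at the gate. The median of Agrp, 4 UMIs in both ImP libraries and 3 in both vehicle libraries, is near its threshold. The median of Npy is 3 UMIs in both ImP libraries, 5 in vehicle 1 and 4 in vehicle 2. The highest Agrp value, 12 UMIs, is in ImP 4 and Npy reaches 9 UMIs in both vehicle libraries.

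Levels are given as CPM, a gene's UMIs summed over the nuclei of a class and library and scaled to all UMIs of those nuclei. Agrp stood at 979.9 CPM in ImP 3 and 1038 in ImP 4, against 439.8 in vehicle 1 and 738 in vehicle 2. Npy stood at 777 CPM in ImP 3 and 704 in ImP 4, against 633 in vehicle 1 and 801 in vehicle 2. Agrp was above both vehicle libraries in both ImP libraries, and Npy overlapped. The thresholds are in UMIs, so a shallower member needs a higher share of its UMIs to pass, and the median depth of members was 3789 UMIs in ImP 3 and 3483 in ImP 4, against 5921 in vehicle 1 and 4746 in vehicle 2. The part of depth in these levels was not tested, and no treatment effect on either peptide is read from them.

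Genes of these neurons that the gate did not use were then read to check the label. Corin, a membrane protease of Agrp neurons, had 135 CPM in members of ImP 3 and 156 in ImP 4, and 176 in vehicle 1 and 153 in vehicle 2. In the 42878 other nuclei past the Snhg11 threshold it had 3.44, 5.13, 4.04 and 3.71 in the same order of libraries. Acvr1c, a receptor for activin-type signals, had 338 and 459.7 CPM in members of ImP 3 and ImP 4, and 96.8 and 180.0 in members of vehicle 1 and vehicle 2, against 10.1 to 18.2 in the other nuclei. At least 1 UMI of Corin, Acvr1c, Lepr, the arcuate transcription factor Otp or Ghsr was found in 57 of 70 members. The other 13 members carried none of these 5 genes at this depth.

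Levels of these genes were then read on either side of the thresholds. Pooled over libraries, and among nuclei with at least 2 Npy UMIs, Corin was at 27.2 CPM in the 234 with no Agrp UMI, 76.1 in the 100 with 1, 170 in the 63 with 2 and 159 in the members. Among nuclei with at least 3 Agrp UMIs it was at 8.64 in the 212 with no Npy UMI and 101 in the 43 with 1. Acvr1c was at 69.0, 140, 207 and 265 along the same steps of Agrp, and at 28.3 and 159 along those of Npy. In the nuclei with no Agrp UMI, ImP 4 held 21 of 28 Corin UMIs and 54 of 71 Acvr1c UMIs, and without it the levels were 11.9 for Corin and 29.0 for Acvr1c. Without ImP 4 the later steps of Agrp gave 63.5, 122 and 161 for Corin and 124, 133 and 161 for Acvr1c. The steps were not in every library, since Corin in vehicle 2 stood at 36.8 with 1 Agrp UMI and 25.4 with 2. Just inside the gate, the 34 members with exactly 3 Agrp UMIs had 164 CPM of Corin, against 170 in the 63 just outside. At the Npy edge, the 19 members with exactly 2 Npy UMIs had 148 CPM of Corin and 369 of Acvr1c. The 51 members with more Npy UMIs had 162 and 237. With ImP 4 left out, the 8 members at 2 Npy UMIs had 0 Corin UMIs and 155 CPM of Acvr1c. The 33 with more then had 185 and 162 CPM. Nuclei with at least 3 Agrp UMIs but no Npy UMI lay nearest the level of other nuclei, which pooled to 4.09 for Corin and 12.9 for Acvr1c.

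**Figure D2:**
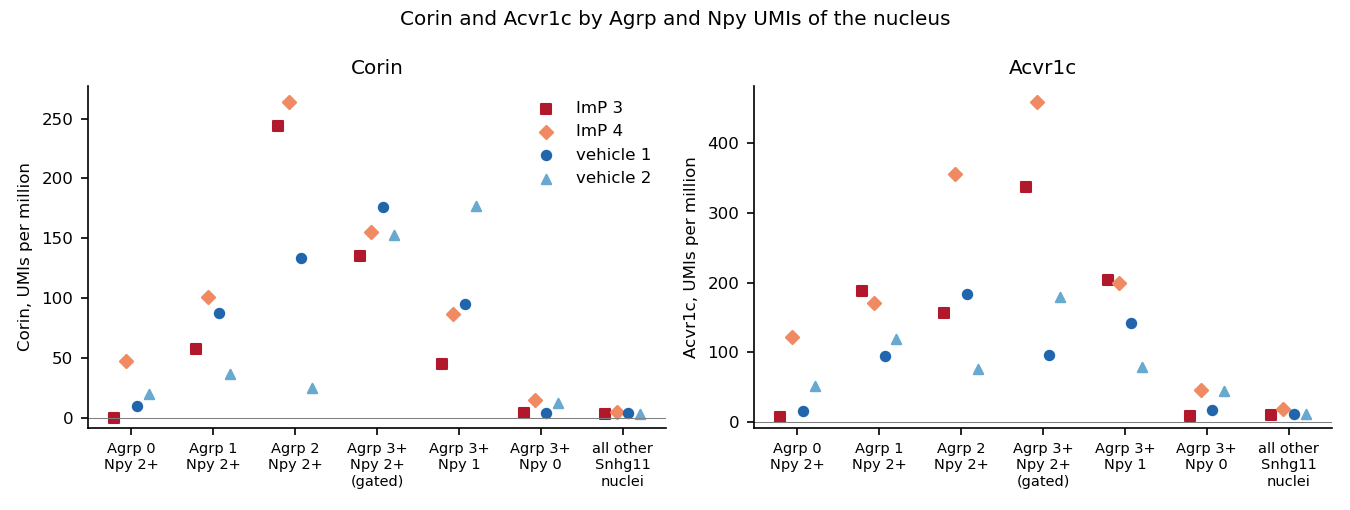
CPM of Corin (left) and Acvr1c (right) in nuclei grouped by their Agrp and Npy UMIs, 1 point per library; all groups passed the Snhg11 threshold. Pooled over libraries both genes are high in members and in the group with 2 Agrp UMIs, and lower where Npy has no UMI; single libraries scatter widely.

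Agrp itself was found far outside the members. Among other nuclei past the Snhg11 threshold, 20.4% in ImP 3, 21.4% in ImP 4, 26.2% in vehicle 1 and 22.5% in vehicle 2 had an Agrp UMI, at median depths of 3439, 3315, 4514 and 3776 UMIs. In nuclei gated on oligodendrocyte markers, which should not make the peptide, the shares were 4.57%, 9.42%, 6.05% and 7.23% at median depths of 1698, 1739, 1948 and 1760 UMIs. In the mouse annotation GENCODE M21, on build GRCm38, the longest extent of Agrp overlaps other genes. The protein-coding genes Ripor1 and Ctcf and the antisense RNA Gm38250 lie on the opposite strand. The non-coding RNA Gm5914, with 3 UMIs over all members, and the pseudogene Gm45855, absent from the counted genes, lie on its own strand. The log2 ratios against other nuclei were 1.36 for Ripor1 (adjusted p = 0.0536, edgeR), -0.09 for Ctcf, 0.17 for Gm38250 and 0.87 for Gm5914. None of them passed. Whether reads of those genes or of introns were counted as Agrp was not tested, and Agrp counts are uncertain to that extent. Npy overlaps no other gene there and had a UMI in 4.19%, 9.84%, 4.43% and 6.10% of other nuclei of the 4 libraries, highest in ImP 4.

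Transmitter genes were sparse in members. Gad2, which makes GABA, had a UMI in 36 members, the vesicular GABA carrier Slc32a1 in 15 and Gad1 in 13, and 46 members had at least 1 of the 3. Slc17a6, the glutamate carrier, had a UMI in 8 members, 2 of which had none of the GABA genes. Beside other nuclei, Gad2 had 101 and 170.5 CPM in members of ImP 3 and ImP 4 and 96.8 and 162 in vehicle 1 and vehicle 2, against 128 to 143 in other nuclei, and the log2 ratios of Gad2 (-0.16 ± 0.25), Slc32a1 (-0.37 ± 0.41) and Gad1 (-0.75 ± 0.39) did not pass (edgeR). Slc17a6 held 17 UMIs over all members, against 15 of Slc32a1, and was lower in members than in other nuclei (-1.48 ± 0.34, adjusted p = 0.00101, edgeR). Of the 17, 2 members of vehicle 1 held 4 and 5. Sst, the peptide somatostatin, which marks a subset of arcuate Agrp neurons, had a UMI in 0 of 7 members of ImP 3 and 9 of 29 of ImP 4, against 4 of 13 in vehicle 1 and 7 of 21 in vehicle 2, with 16 of the 25 UMIs of ImP 4 in 1 nucleus. Its level was 0 and 185 CPM in ImP 3 and ImP 4 and 35.2 and 72.0 in vehicle 1 and vehicle 2, against 37.7 to 79.5 in other nuclei, with no call (adjusted p = 0.700, edgeR), and nuclei with an Sst UMI are not read as that subset. Gm8773, known as a label of another Agrp subset, was seen in 2 members, both in ImP 4. Pomc had a UMI in 18 members, 14 of them in ImP 4, where 49.3% of other nuclei past the Snhg11 threshold had one too, against 8.06% to 12.7% in the other 3 libraries.

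Markers of other cell classes were read in the members beside the other nuclei. The 8 fibroblast markers summed to 2 UMIs over members of ImP 3 and 0 of ImP 4, against 0 in vehicle 1 and 1 in vehicle 2, and the 8 endothelial and mural markers to 0 and 0, against 1 and 2. Oligodendrocyte markers summed to 709.6 CPM in members of ImP 3 and 563 in ImP 4, against 343 in vehicle 1 and 432 in vehicle 2, beside 643, 636, 397 and 520.3 in the other nuclei. In both classes of nuclei the ImP libraries were above the vehicle libraries, and the part of these transcripts in the results below was not tested. The 8 tanycyte and ependymal markers summed to 0 and 8 UMIs in ImP 3 and ImP 4, against 28 in vehicle 1 and 9 in vehicle 2; the 28 amount to 246 CPM, beside 57.6 in other nuclei of vehicle 1. No doublet caller was run, and 1 member of vehicle 1 had 26786 UMIs, 23.6% of all UMIs of that library's members. The next deepest member of vehicle 1 had 20685 UMIs. These 2 members carried 4 and 5 UMIs of Slc17a6, of 9 in the members of that library.

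Members were then compared with the 42878 other nuclei past the Snhg11 threshold on counts summed per library and with the library as a block. At an adjusted p under 0.05 (edgeR quasi-likelihood test, Benjamini-Hochberg over 19189 genes), 170 genes were higher in members, 0.886% of those tested, and 402 were lower, 2.09%, together 2.98%, while 9.96% had an unadjusted p under 0.05. The median log2 ratio of all genes was -0.34, and moved to -0.14 when only total UMIs were used for scaling, where 278 genes were higher and 295 lower. The balance of higher and lower calls thus moved with scaling, while the 12 genes named as higher kept their direction in all 13 other settings run. A stricter comparator was the 923 other nuclei with at least 2 Slc32a1 UMIs, for which 243 of 8965 genes were higher, 2.71%, and 400 lower, 4.46%, together 7.17%, with a median of -0.03 (333 and 363 with total UMIs alone). Slc32a1 was part of the comparator's own gate, so its lower level there is not read. Gad1 (log2 ratio -1.56 ± 0.36, adjusted p = 0.000453, edgeR) and Gad2 (-0.95 ± 0.25, adjusted p = 0.00267, edgeR) were also lower there. The part of the comparator's gate in these 2 calls was not tested.

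Among genes at 20 CPM or more and higher in every library, the largest ratios included Corin at a log2 ratio of 5.03 ± 0.34 (SE, adjusted p = 9.96e-45, edgeR), the nuclear receptor Nr5a2 at 4.59 ± 0.44, and Acvr1c at 4.02 ± 0.26. Nr5a2 had 169 CPM in members of ImP 3 and 111 in ImP 4, and 96.8 and 36.0 in vehicle 1 and vehicle 2, against 2.29 to 4.52 in other nuclei. Filip1, a filamin-binding protein, rose by 3.69 ± 0.22, with 507, 423, 439.8 and 144 CPM in members of ImP 3, ImP 4, vehicle 1 and vehicle 2, against 20.5 to 27.3 in other nuclei. Npffr2, a receptor for neuropeptide FF, rose by 3.47 ± 0.46 and was level across libraries at 61.6 to 74.1 CPM. The 12 genes named by this rule also held Vwa5a, Fli1, Amelx, Calcr, Lepr, Gch1 and the unnamed transcript 4930500H12Rik. Gch1, which makes a cofactor of monoamine synthesis, and 4930500H12Rik rested on 9 UMIs each, and each lost its call under some settings.

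**Figure D3:**
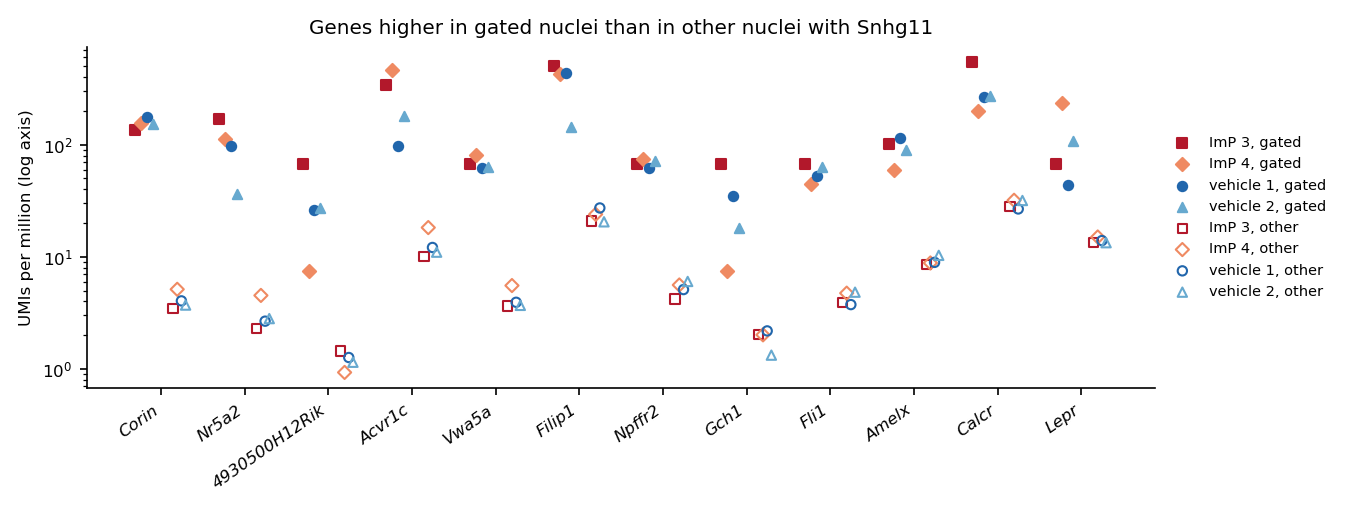
CPM on a log axis for the 12 genes with the largest rise among those at 20 CPM or more in members and higher in every library: filled symbols are members and open symbols the other nuclei with Snhg11, 1 symbol per library. Filled symbols lie above open symbols for every gene and library.

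Several receptors for circulating signals were higher in members. Of 37 receptors for hormones and nutrients tested, 5 were higher in members and 3 lower, against 0.886% and 2.09% of all genes. Lepr had 67.6 CPM in members of ImP 3 and 237 in ImP 4, and 44.0 and 108 in vehicle 1 and vehicle 2, against a mean of 13.9 in other nuclei, a log2 ratio of 2.94 ± 0.33 (adjusted p = 5.99e-16, edgeR). Every library had members above the others, and the spread among members was wide, with 1 of 7 members of ImP 3 and 14 of 29 of ImP 4 carrying a Lepr UMI, against 3 of 13 and 8 of 21.

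Ghr, the growth hormone receptor, was found in 67 of 70 members. It had 1723 CPM in members of ImP 3 and 2395 in ImP 4, and 1821 and 1440 in vehicle 1 and vehicle 2, against 198 to 245 in other nuclei, a log2 ratio of 2.86 ± 0.19 (adjusted p = 2.997e-46, edgeR). Members of all 4 libraries lay far above the other nuclei. Calcr, the calcitonin receptor, which also serves amylin, rose (adjusted p = 1.88e-34, edgeR), with 541, 200.2, 264 and 270.0 CPM in members of ImP 3, ImP 4, vehicle 1 and vehicle 2. Nr3c1, the glucocorticoid receptor, rose by 0.93 ± 0.23 (adjusted p = 0.00207, edgeR).

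Ghsr, the ghrelin receptor, was barely covered: members held 0 UMIs in ImP 3 and 5 in ImP 4, against 0 in vehicle 1 and 1 in vehicle 2. Its level in other nuclei was still lower, 0.529 to 1.08 CPM, and the log2 ratio of 4.12 ± 0.95 passed (adjusted p = 0.000865, edgeR). The prolactin receptor Prlr fell by 2.82 on the log2 scale, the thyroid hormone receptor Thrb by 2.11 and the insulin-like growth factor receptor Igf1r by 1.78, and all 3 also fell against Slc32a1 nuclei. The insulin receptor Insr stood at 67.6 and 89.0 CPM in members of ImP 3 and ImP 4, and 185 and 108 in vehicle 1 and vehicle 2, against 97.4 to 104 in other nuclei, with no call (log2 ratio 0.03 ± 0.26).

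Of 28 genes of leptin and insulin signalling, 3 were higher in members and 0 lower, against 0.886% and 2.09% of all genes. Stat3, through which the leptin receptor acts on genes, had 169 CPM in members of ImP 3 and 208 in ImP 4, and 167 and 135 in vehicle 1 and vehicle 2, against 39.8 to 46.2 in other nuclei, a log2 ratio of 1.80 ± 0.26 (adjusted p = 5.51e-10, edgeR). Members lay above other nuclei in all 4 libraries. Irs4, an adaptor of insulin-type receptors, rose by 2.09 ± 0.45 and Socs2, an inhibitor of growth hormone signalling, by 1.37 ± 0.42. Foxo1, a transcription factor held back by insulin, passed against Slc32a1 nuclei (1.82 ± 0.51) and not against Snhg11 nuclei (1.22 ± 0.42), and 16 of its 22 UMIs were in ImP 4.

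Of 16 glucocorticoid target genes, Fkbp5 and Zbtb16 were higher in members, against 0.886% of all genes. Fkbp5, which loosens the binding of hormone to the glucocorticoid receptor, had 101 CPM in members of ImP 3 and 170.5 in ImP 4, and 96.8 and 162 in vehicle 1 and vehicle 2, against 41.7 to 79.0 in other nuclei, a log2 ratio of 1.17 ± 0.27. Zbtb16, a transcriptional repressor, had 67.6 and 163 in ImP 3 and ImP 4, and 44.0 and 171 in vehicle 1 and vehicle 2, and rose (adjusted p = 0.00311, edgeR). DESeq2 called 1 of the pair. The members' ImP and vehicle libraries overlapped for both genes.

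Of 39 receptors for transmitters and peptides, 3 were higher and 4 lower, against 0.886% and 2.09% of all genes. Npy2r, through which neuropeptide Y restrains the cells that release it, rose by 2.33 ± 0.48 with 101 CPM in members of ImP 3 and 74.1 in ImP 4, and 35.2 and 36.0 in vehicle 1 and vehicle 2, against 8.42 to 10.1 in other nuclei. The serotonin receptor Htr1b rose by 1.48 ± 0.46, and Vipr1 rested on 4 UMIs. The serotonin receptor Htr2c fell by 1.81 on the log2 scale, with 33.8 and 89.0 in ImP 3 and ImP 4, and 325 and 81.0 in vehicle 1 and vehicle 2, against 393 to 469.6 in other nuclei. Chrna7, Cnr1 and the orexin receptor Hcrtr2 were also lower, from 4, 10 and 7 UMIs over all members. The 4 lower calls became 2 with RLE factors, 2 with total UMIs alone and 1 with DESeq2.

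Among 44 transcription factors tested, 5 were higher and 8 lower, against 0.886% and 2.09% of all genes. Isl1 had 101 CPM in members of ImP 3 and 141 in ImP 4, and 79.2 and 198 in vehicle 1 and vehicle 2, against 28.0 to 34.6 in other nuclei, a ratio of 1.88 ± 0.29. Otp rose by 2.42 ± 0.49, from 20 UMIs over all members, 2 of them in ImP 3. Tbx3, which keeps arcuate peptide neurons in their state, rose by 3.11 ± 0.60, from 15 UMIs with 0 in ImP 3. Zfhx3 rose by 0.78 ± 0.19, and Nr5a2 is given above. All 5 also rose against Slc32a1 nuclei, where 6 of 19 factors tested were higher and 5 lower, against 2.71% and 4.46% of all genes. Among those below other nuclei were Ebf1, Meis2, Sim1, Zfhx4, Rorb, Nfia and Nfib. With total UMIs alone 7 factors were higher and 4 lower, so part of these lower calls depends on scaling.

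Fast transmitter receptors gave calls in 1 direction. Of 31 ionotropic glutamate and GABA receptor genes, 9 were lower in members, against 2.09% of all genes, and 0 higher. The same 9 were lower against Slc32a1 nuclei, where 4.46% of all genes were lower. The GABA receptor subunit Gabrb2 had 33.8 CPM in members of ImP 3 and 81.6 in ImP 4, and 106 and 27.0 in vehicle 1 and vehicle 2, against 256 to 306 in other nuclei, a log2 ratio of -2.27 ± 0.28. Gria3, an AMPA receptor subunit, fell by 1.53 on the log2 scale and Grin3a, an NMDA receptor subunit, by 1.96. With total UMIs alone 8 were lower and 2 higher.

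Of 45 other channel genes, Trpc4 and Kcnc2 were higher and 8 were lower, against 0.886% and 2.09% of all genes. With total UMIs alone 7 were higher and 8 lower, with RLE factors 4 and 8 and with DESeq2 2 and 2. Trpc4, a cation channel, had 67.6 CPM in members of ImP 3 and 578 in ImP 4, and 238 and 207 in vehicle 1 and vehicle 2, against 71.8 to 90.0 in other nuclei, a ratio of 1.69 ± 0.21. ImP 3, with 2 UMIs of Trpc4, was not above its other nuclei. Kcnn2, a calcium-gated potassium channel, fell by 2.37 on the log2 scale and the cation channel Trpm3 by 2.05. Syt1, a calcium sensor of vesicle release, fell by 1.66 and was the only one of 25 genes of peptide processing and granules with a call against the Snhg11 nuclei.

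Other lists gave few calls against other Snhg11 nuclei, where 0.886% of all genes were higher and 2.09% lower. Of 26 neuropeptides tested besides Agrp and Npy, 0 were higher, and Avp and Oxt were lower, of which 1 call was left with total UMIs alone and 0 with DESeq2. Of 26 genes of the p38, p62, mTORC1 and AMPK pathways, on which ImP is known to act in liver, Camkk2 alone was lower, from 5 UMIs; with total UMIs alone the list gave 1 higher and 0 lower. Of 18 circadian clock genes 0 were higher and Npas2 and Rorb were lower, of 25 lipid and fuel genes Acsl6 was lower and not with total UMIs alone, and the 26 chaperone, 24 immediate early and 8 histamine or imidazoline genes tested gave 0 calls by edgeR.

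Genes with the largest fall were ones with 2 UMIs or fewer over all members. Gm15414, Rnf128, Fam184b, Dlx1as, Cabp1 and Wscd1 had 0 UMIs in the 389267 member UMIs; taking 3 UMIs over all members as the limit that a count of 0 allows, they were at least 6.02-, 3.47-, 3.26-, 3.12-, 2.92- and 2.60-fold lower than in other nuclei. Ebf1, a transcription factor of other neuron lineages, had 1 UMI against 84.5 CPM in other nuclei, a ratio of 32.9 (95% counting interval 5.90 to 1299) between other nuclei and members. Meis2 and the secreted protein Reln also had 1 UMI each, with ratios of 21.9 (3.93 to 865) and 21.3 (3.82 to 840). Dlx6os1, a non-coding RNA of the Dlx locus, had 2 UMIs and a ratio of 15.8 (4.38 to 131). Gm29683 and B130024G19Rik had 1 UMI each. Ebf1, Meis2, Reln and Dlx6os1 kept their call under each of the 13 other settings run, whereas Cabp1 lost it under 7 and Dlx1as and Wscd1 under 6 each.

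ImP was compared with vehicle within the members on counts summed per library. Of 2660 genes with enough counts, 0 passed an adjusted p under 0.05 (edgeR quasi-likelihood test with Benjamini-Hochberg adjustment, 0%), and 0 with DESeq2, while 180 had an unadjusted p under 0.05, 6.77%. Both ImP libraries lay above both vehicle libraries for 483 genes, 18.2%, and below them for 491, 18.5%. Among members, ImP 3 held 29594 UMIs in all, against 111107 to 134884 in the other libraries. Leaving out 1 library at a time gave 4 to 28 calls, with 28 without vehicle 2 and 23 without ImP 3, so the count rests on single libraries. The pituitary transcripts Gh and Prl were among the calls without vehicle 1, without vehicle 2 and without ImP 3.

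Among the genes central to these cells, Acvr1c had the levels given above, higher in both ImP libraries than in both vehicle libraries, and a log2 ratio of 1.60 ± 0.40 and an adjusted p of 0.508 (edgeR). It passed in 2 of 14 alternatives, without vehicle 2 and without ImP 3, where adjusted p-values over all alternatives ran from 0.00761 to 1. In other nuclei Acvr1c was also highest in ImP 4. Lepr gave 1.35 ± 0.55 (adjusted p = 0.723), rested on ImP 4 and turned to -0.24 without it. Insr gave -0.78 ± 0.50, Nr3c1 -0.20 ± 0.41, Ghr 0.37 ± 0.26, Stat3 0.40 ± 0.38 and Corin -0.11 ± 0.39, with no call. Gad2 and Fkbp5, whose UMI sums happened to be the same in all 4 libraries, both gave 0.26 ± 0.45.

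Genes higher with ImP, named by the smallest p among those whose libraries did not overlap, were Gpr176, Acvr1c, Fsd1l, Gabra2, Atp6v0c, Htr1f, Gm20713 and Rps7, all at an adjusted p of 0.508 (edgeR). Gabra2, a GABA receptor subunit, had 777 and 719 CPM in members of ImP 3 and ImP 4, against 361 and 279 in vehicle 1 and vehicle 2, a log2 ratio of 1.21 ± 0.31. Both ImP libraries were about level, but 18 of 23 Gabra2 UMIs of ImP 3 came from 1 nucleus. Htr1f, a serotonin receptor, had 304 and 215 CPM in ImP 3 and ImP 4, against 88.0 and 81.0, and its 9 UMIs in ImP 3 lay in 1 nucleus. Gpr176, an orphan receptor, had 270.3 and 237 against 70.4 and 81.0, from 4 of 7 and 15 of 29 ImP members.

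Atp6v0c, a subunit of the proton pump that acidifies vesicles and lysosomes, had 405 CPM in ImP 3 and 393 in ImP 4, against 141 in vehicle 1 and 171 in vehicle 2, a log2 ratio of 1.35 ± 0.36. The libraries of each treatment lay close together, which the choice of genes by smallest p without overlap favours. Atp6v0c had UMIs in 51 of the 70 members. In other nuclei Atp6v0c was also above vehicle in both ImP libraries, at 365 and 489 against 247 and 274. Rps7, a ribosomal protein, had 304 and 163 against 35.2 and 72.0, and Fsd1l had 203 and 297 against 96.8 and 90.0.

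Genes lower with ImP were Synpr, Slit2, Cdh13, Nrg1, Gm26871, Spag16, Schip1 and Arhgap20. Synpr, synaptoporin, a membrane protein of synaptic vesicles, had 33.8 CPM in members of ImP 3 and 74.1 in ImP 4, against 334 in vehicle 1 and 396 in vehicle 2. That is 1 and 10 UMIs against 38 and 44, found in 1 of 7 and 8 of 29 members against 9 of 13 and 14 of 21. The groups did not overlap, at a log2 ratio of -2.44 ± 0.44 and an adjusted p of 0.274 (edgeR), or under 0.05 with the number in the library name as a block.

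Slit2, a secreted guidance cue, had 67.6 and 66.7 CPM in ImP 3 and ImP 4, against 413 and 261 in vehicle 1 and vehicle 2, a log2 ratio of -2.30 ± 0.46 (adjusted p = 0.321, edgeR). Cdh13, a cadherin anchored in the outer membrane, had 33.8 and 44.5 against 281 and 189. Nrg1, the growth factor neuregulin, had 237 and 423 against 1575 and 639, and 122 of its 179 UMIs in vehicle 1 came from 1 nucleus. Slit2 was found in 6 of 13 members of vehicle 1 and 5 of 21 of vehicle 2, and Cdh13 in 3 and 6. For Slit2, 1 nucleus held 24 of the 47 UMIs of vehicle 1, and 1 held 16 of the 29 of vehicle 2. Of the 32 Cdh13 UMIs of vehicle 1, 1 nucleus held 17 and the deepest nucleus 14. In vehicle 2 the highest nucleus held 7 of 21.

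**Figure D4:**
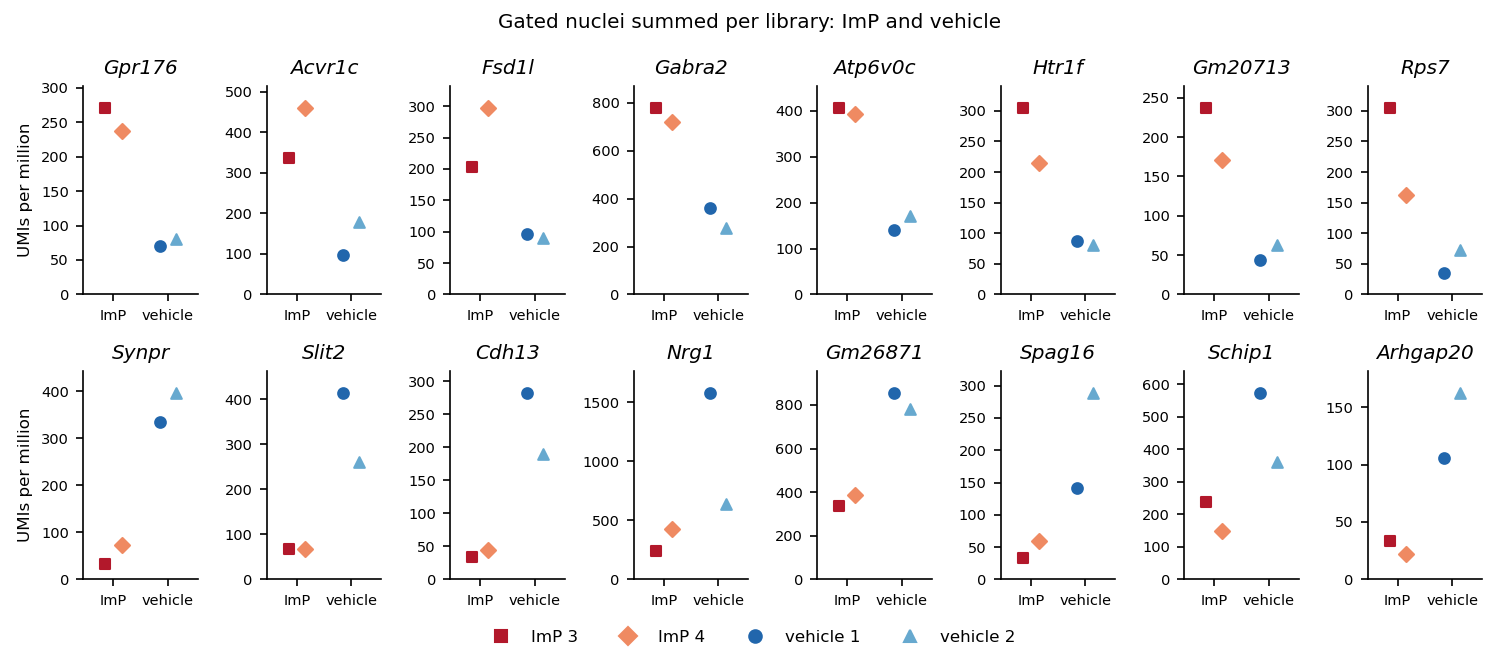
CPM in members, summed per library, for the 8 genes higher and the 8 lower with ImP that had the smallest p without overlap; each panel starts at 0. Symbols give single libraries, and the named genes were picked for not overlapping; none passed adjustment.

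With all 4 libraries and the low-count filter, no gene of the lists passed between treatments by edgeR or DESeq2. Of 9 chaperone genes tested, 7 had a positive ratio and in 5 neither ImP library reached down to the vehicle libraries, with a median log2 ratio of 0.50 against -0.01 for all genes, and 0 passed; 18.2% of all genes tested lay above in this way. Among these Hsp90b1 had 338 and 215 CPM with ImP against 106 and 144 with vehicle, and Hspa5 135 and 259.5 against 88.0 and 126, while in other nuclei Hspa5 was also highest in ImP 4 at 203 CPM. Of 22 ionotropic receptor genes the median was -0.07, of 27 other channels 0.09, of 14 granule genes -0.01 and of 9 leptin and insulin signalling genes -0.02, with 0 calls in each. Of 27 genes of the p38, p62, mTORC1 and AMPK pathways 4 could be tested, with a median of -1.23 and Prkag2, a regulatory subunit of AMPK, at 67.6 and 22.2 against 132 and 135, which did not pass (log2 ratio -2.04 ± 0.64, adjusted p = 0.508, edgeR). Immediate early genes were too sparse to test in members.

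A separate fit asked whether the effect of ImP differed between members and other nuclei past the Snhg11 threshold. At an adjusted p under 0.05 (edgeR interaction term over 19189 genes), 3 genes differed, 0.0156%, all with a lower ImP effect in members, and 0 differed with DESeq2, while 416 had an unadjusted p under 0.05, 2.17%. Synpr was level in other nuclei, at 95.5 CPM in ImP 3 and 91.4 in ImP 4, against 92.2 and 87.1 in vehicle 1 and vehicle 2. The difference of log2 effects, members minus other nuclei, was -2.55 ± 0.51 (adjusted p = 0.00443, edgeR). It stayed between -3.88 and -1.25 in all 13 other settings, passed in 7 of them, and did not pass with any 1 library left out, with thinned nuclei or with DESeq2.

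Ntng1, a surface protein of axons, gave -3.21 ± 0.70 (adjusted p = 0.0243, edgeR) and the non-coding RNA Gm32647 -4.58 ± 0.79 (adjusted p = 0.000134). Ntng1 had 0 and 4 UMIs in members of ImP 3 and ImP 4, against 60 and 7 in vehicle 1 and vehicle 2, and Gm32647 had 1 and 1 against 70 and 6. In both, vehicle 1 alone was high. All 60 Ntng1 UMIs of vehicle 1 lay in 2 of its 13 members, and all 70 of Gm32647 also in 2. The deepest nucleus of vehicle 1 held 29 of the 60 Ntng1 UMIs and 53 of the 70 of Gm32647. Without the deepest nucleus of each library neither gene passed. Without vehicle 1 the differences were -1.38 for Ntng1 and -2.31 for Gm32647, and neither passed. Nr3c2, the mineralocorticoid receptor, had the smallest p in the other direction, with 135 and 912 CPM in ImP 3 and ImP 4, against 202 and 162, and did not pass (1.74 ± 0.42, adjusted p = 0.150, edgeR); ImP 4 alone was high.

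**Figure D5:**
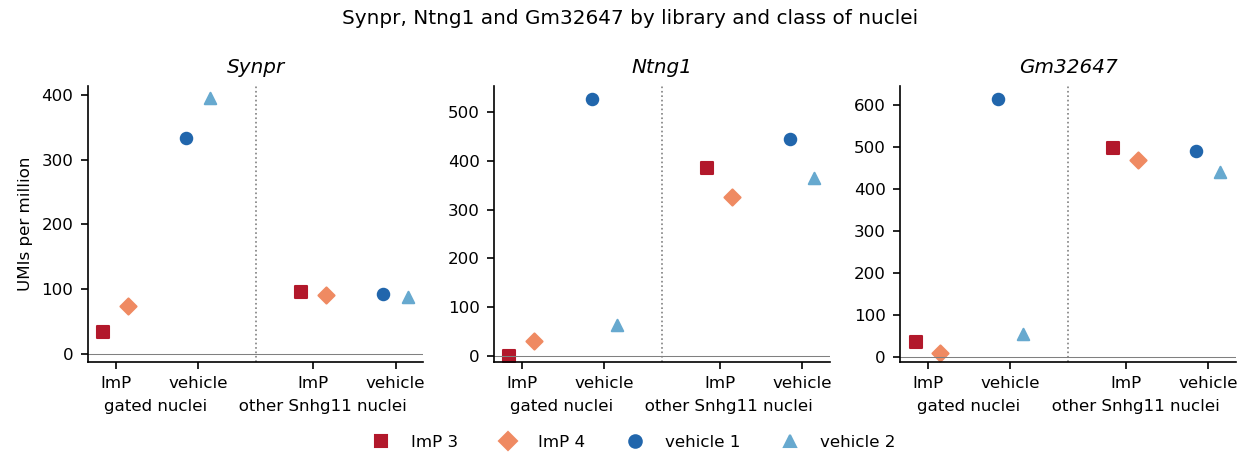
CPM of Synpr, Ntng1 and Gm32647 in members (left of the dotted line) and other nuclei with Snhg11 (right), with ImP left of vehicle; 1 symbol per library. Synpr is low in both ImP libraries of members, while for Ntng1 and Gm32647 vehicle 1 stands alone among members.

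Nuclei just outside the gate gave the same named genes a second reading. A gate of at least 2 Agrp and 1 Npy UMIs added 34 nuclei in ImP 3 and 65 in ImP 4, and 32 in vehicle 1 and 50 in vehicle 2, which the choice of named genes had not used. In these added nuclei Synpr had 129 CPM in ImP 3 and 125 in ImP 4, against 221 in vehicle 1 and 182 in vehicle 2, again without overlap. Of the 8 genes higher with ImP in members, 1 did not overlap in the same direction in the added nuclei, and of the 8 lower, 2 did, while over all 2660 genes tested 16.2% lay above in both ImP libraries and 15.8% below. These counts are near that share. The 3 genes were Atp6v0c, with 330.0 and 439 CPM against 209 and 211, and Synpr and Spag16. Slit2 had 227 and 289 against 174 and 232, and Gm20713 lay the other way round. Gm32647 also lay the other way round, with 526 and 275.5 CPM in ImP 3 and ImP 4, against 145 and 116 in vehicle 1 and vehicle 2. The added nuclei come from the same libraries, so this is a description with no test.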

How the data were processed

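The authors deposited raw UMI counts for each gene in each barcode. Per the submitters' processing notes the tools were Cell Ranger 8.0.1 and Seurat 5.0.0 and the build was GRCm39. For the annotation release and the treatment of introns, the answer is not given in the sources used here. Members and gene lists were chosen with earlier results of these data known. Members' counts, and those of other nuclei, were summed per library and tested with edgeR 4.0.16 in R 4.3.3 (TMM factors, a minimum count of 10, Benjamini-Hochberg over all genes tested, gate genes left out of counts of calls); the library was a block between classes of nuclei. Shares used exact binomial intervals and an exact permutation test (scipy 1.17.1). CPM values are counts scaled to the summed UMIs of the same nuclei. Barcodes with fewer than 500 genes or more than 5% mitochondrial UMIs were removed. No doublets were removed and none of the nuclei were clustered. Library totals ran from 48060194 to 51945297 UMIs.

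Named between ImP and vehicle were the 8 genes per direction with the smallest p at a mean of 20 CPM or more and no overlap of libraries, and between members and other nuclei the 12 with the largest call per direction moving the same way in all 4 libraries, at 20 CPM or more in the higher class. For the difference of effects they were the 4 per direction with the smallest p, and for lists the members past the threshold, those with the smallest p, and the central genes of these cells. Alternatives were no low-count filter, RLE factors, DESeq2 1.42.0, each library left out, a block of the library-name number, looser and stricter gates, nuclei without other-class signal and thinned nuclei. Chosen after seeing the data were a gate of 10 Snhg11 UMIs, total UMIs without factors, leaving out the deepest member of each library, and levels by gate step without ImP 4. The model was checked on simulated counts. Of 501 listed genes, 500 were in the files, and 26 symbols stand for more than 1 identifier. The overlap of gene annotations was read from GENCODE M21 on GRCm38, of another build than the files, and no coordinates are given.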

Additional observations from a re-analysis of the deposited data

Results flagged for a closer look

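In the fit across all genes, 3 genes had an effect of ImP that differed between members and other nuclei with Snhg11 by the interaction term in edgeR. For Synpr the difference of log2 effects, members minus other nuclei, was -2.55 (adjusted p = 0.00443), with both ImP libraries below both vehicle libraries among members. For Gm32647 it was -4.58 (adjusted p = 0.000134, edgeR) and for Ntng1 -3.21 (adjusted p = 0.0243, edgeR). Among members both rested on vehicle 1, where 2 nuclei held all 70 UMIs of Gm32647 and 2 held all 60 of Ntng1. The deepest nucleus held 53 of the 70 and 29 of the 60.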

How the results depend on the processing

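The groups share no replicate number, but each number in the library names stands once in each group; with it as a block, 2 genes were called between ImP and vehicle. That count was 8 with no low-count filter, 10 with thinned nuclei and 4 to 28 with 1 library left out, against 0 as reported. Members against other nuclei gave 321 calls with DESeq2 and 345 to 563 with 1 library left out, and against Slc32a1 nuclei 357 and 422 to 566. The difference of effects gave 5 calls with RLE factors, 7 with total UMIs alone, 6 with the looser gate, 1 without nuclei with other-class signal, 1 without the deepest nuclei, 0 with thinned nuclei, 0 with DESeq2 and 0 to 2 with 1 library left out. The share difference was 0.0247 points with thinned nuclei and -0.116 to 0.0556 with 1 library left out. The stricter gate could not be fitted, since ImP 3 had 0 nuclei past it.

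Signs turned for the log2 effect of ImP with the looser gate for Gm20713 (-0.16), Cdh13 (0.25), Stat3 (-0.042) and Corin (0.19, and 0.11 without the deepest nuclei). Without ImP 4 they turned for Lepr (-0.24), Ghr (-0.0026), Fkbp5 and Gad2 (-0.43 each), and without vehicle 1 for Fkbp5 and Gad2 (-0.09 each) and Nr3c1 (0.20). For the difference of effects, Nr3c2 turned to -0.86 without ImP 4, and Gm32647 to 0.55 and Ntng1 to 0.12 with the looser gate. With 1 library left out these effects ran from -0.24 to 2.11 for Lepr, -0.0026 to 0.56 for Ghr, -0.43 to 0.66 for Fkbp5 and Gad2, -0.85 to 0.20 for Nr3c1 and -0.86 to 2.52 for the Nr3c2 difference. The cause was not tested. ImP 3, with 7 members, limits every comparison of treatments.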
